A study of Homo sapiens with 6 samples.

Results

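The mitotic spindle is the array of microtubules that pulls sister chromosomes apart, and it is built and held in shape by proteins that grow, bundle and anchor microtubules. Many of their genes are switched on together in G2 and mitosis, and Aurora A and Aurora B, related kinases, act on several of the proteins. The genes described here are 10 spindle assembly and microtubule-associated genes, chosen by their gene names in the deposited table: NUSAP1, DLGAP5, HMMR, ASPM, TACC3, CKAP2, CKAP2L, CKAP5, NEK2 and GTSE1. They are 10 of the 50868 genes in the table, each name matched 1 row, and all 10 passed the low-count filter.

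The RNA came from CUTLL1, a human cell line of T-cell acute lymphoblastic leukaemia (T-ALL), infected with a lentivirus that carried a short hairpin RNA (shRNA). The shGFP arm received the control shRNA and the shAURKB arm an shRNA against AURKB, the gene for Aurora B, with 3 libraries each. Both arms were infected and put under puromycin, and the time given is 48 h. The replicates are described as biological, without saying whether they were separate infections, so p-values measure the spread between these libraries alone, and a single cell line was used.

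Library totals ran from 10154187 to 11922979 counts. T-ALL markers fixed for this line were abundant, with 12 of 15 at a level of at least 10 CPM (reads scaled to a common library size) in every library. Fibroblast markers summed to 44.9 CPM in shGFP replicate 1 and to between 19.6 and 25 CPM in the other libraries, with COL3A1, DCN, LUM, PDGFRB and THY1 at 0 throughout. Epithelial markers summed to 9.31 CPM in that library and to at most 1.17 CPM elsewhere. Myeloid markers summed to between 1.73 and 2.92 CPM. B cell markers summed to between 22.2 and 27.9 CPM, with 1 of 5 at a level of at least 10 CPM in every library. All 5 erythroid markers were at 0. Values below are also given without shGFP replicate 1 where a call rests on it.

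The target was measured first. AURKB was at 100, 97.0 and 107 CPM in shGFP replicates 1 to 3 and at 39.8, 43.9 and 36.0 CPM in shAURKB replicates 1 to 3, where CPM is scaled by TMM (a factor that aligns most genes between libraries). The arms did not overlap, and the log2 fold change was -1.35 ± 0.08 (SE; adjusted p = 2.54e-04, edgeR quasi-likelihood test with Benjamini-Hochberg adjustment).

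The question for the spindle genes was whether their mRNA differed between the arms. ASPM fell by 23.4% and CKAP5 by 22.2% with AURKB shRNA, and the other 8 genes were not called at an adjusted p below 0.05. No member was called higher. Across all tested genes, 10.9% were called lower, 12.5% higher and 23.3% in either direction, so 2 called of 10 is close to the background. The median log2 fold change was -0.05 over the 10 genes and 0.00 over all 14818 tested genes, with 5 members above 0 and 5 below. The library values of the arms did not overlap in 5 of the 10 (ASPM, CKAP5 and DLGAP5 lower, NEK2 and GTSE1 higher), against 42.6% of all tested genes. These are bulk libraries, in which fewer cells in mitosis and less RNA per cell cannot be told apart.

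The windows just before the starts of ASPM and CKAP5, the members called lower, and of TACC3, the gene for a binding partner of the CKAP5 protein that was not called, are shown to let the letters be compared. They come from RefSeq on GRCh38.p14 and are read 5′ to 3′ on the gene's strand. Each stretch stops before the deposited gene span and before the RefSeq start. The ASPM window is chr1:197146695-197146919 (minus strand), the CKAP5 window chr11:46846309-46846530 (minus strand) and the TACC3 window chr4:1720381-1720630 (plus strand). Capitals mark TTTGAA or TTTAAA, the core letters of the cell cycle homology region known from G2 and mitosis promoters, and CCAAT, the letters bound by the factor NF-Y, on either strand (TTCAAA and ATTGG when read backwards).
ASPM: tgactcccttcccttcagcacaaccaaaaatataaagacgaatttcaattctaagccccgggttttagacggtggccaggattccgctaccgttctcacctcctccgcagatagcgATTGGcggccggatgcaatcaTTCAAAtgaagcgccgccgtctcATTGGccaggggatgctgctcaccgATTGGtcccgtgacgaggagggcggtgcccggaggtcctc
CKAP5: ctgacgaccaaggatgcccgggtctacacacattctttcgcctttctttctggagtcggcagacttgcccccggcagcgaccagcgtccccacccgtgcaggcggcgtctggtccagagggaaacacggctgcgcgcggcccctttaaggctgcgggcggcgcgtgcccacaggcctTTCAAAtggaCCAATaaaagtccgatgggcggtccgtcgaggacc
TACC3: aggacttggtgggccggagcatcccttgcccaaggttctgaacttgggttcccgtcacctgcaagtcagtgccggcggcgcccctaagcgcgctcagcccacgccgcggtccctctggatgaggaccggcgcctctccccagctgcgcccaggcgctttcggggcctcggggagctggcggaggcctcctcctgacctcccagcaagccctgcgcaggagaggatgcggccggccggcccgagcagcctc
In the stretch shown, ASPM held ATTGG 3 times and TTCAAA 1 time. CKAP5 held TTCAAA, beginning 73 bases before its RefSeq start, and CCAAT, beginning 63 bases before it. TACC3 held none of these letters in its window. That window ends at 1720630, before its RefSeq start, while the deposited TACC3 span begins further downstream, at 1721490. The ASPM and CKAP5 stretches lie directly before their deposited spans, so the TACC3 stretch is not at a like position.

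All 10 members had a RefSeq promoter window of 300 bases, from 250 before the start to 50 after. TTTGAA was found on either strand in 7 of the 10 windows and in 15.2% of the 35116 windows of that length in the table. TTTAAA was found in 3 of 10 and in 12.2% of all windows, and CCAAT in 8 of 10 and in 34.6% of all windows. The TTTGAA set held ASPM and CKAP5, which fell, and CKAP2L, HMMR, DLGAP5, NUSAP1 and GTSE1, which were not called. TACC3, CKAP2 and NEK2 had no TTTGAA in their windows. A match is a description of letters and was not tested as a site.

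**Figure D1:**
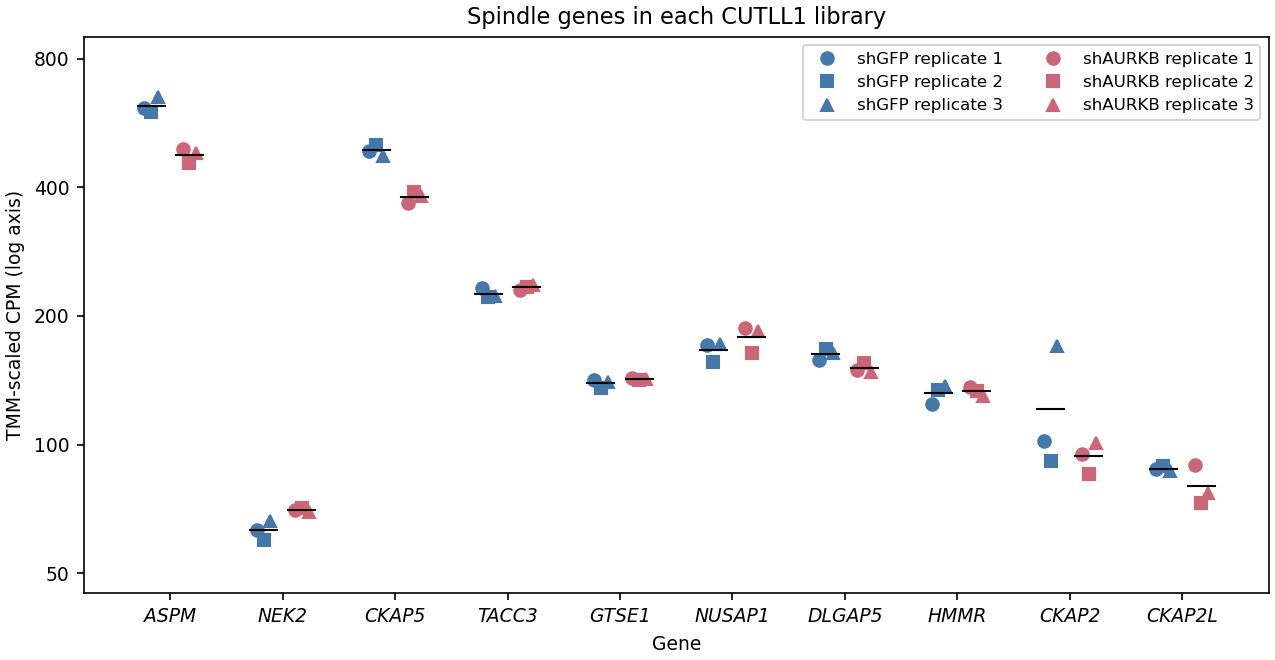
Level of the 10 spindle genes in each library, as TMM-scaled CPM on a log axis. Each point is 1 library (blue shGFP, red shAURKB, shape by replicate) and each black bar the mean of 3. ASPM and CKAP5 separate by arm, and CKAP2 has 1 high control library at 170 CPM.

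Of the genes acting at spindle poles, ASPM was lower and NEK2 was not called. ASPM (ENSG00000066279, GRCh38 chromosome 1, 197084128 to 197146694, minus strand) encodes a protein that gathers microtubule minus ends at the poles and is mutated in primary microcephaly. It was at 613, 601 and 649 CPM in shGFP replicates 1 to 3 and at 490, 456 and 480 CPM in shAURKB replicates 1 to 3. Every shAURKB library lay below every control. The arm means were 621 ± 24.9 and 476 ± 17.5 CPM (SD, n = 3 each), and the log2 fold change was -0.38 ± 0.04 (SE; edgeR adjusted p = 1.72e-03), a change of -23.4% with a 95% interval of -28.6% to -17.8%. Without shGFP replicate 1 it was -0.39.

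NEK2 (ENSG00000117650, chromosome 1, 211658657 to 211675630, minus strand) encodes a kinase that loosens the link between centrosomes before the spindle forms. It was at 63.2, 59.7 and 66.3 CPM in shGFP replicates 1 to 3 and at 70.4, 71.1 and 69.7 CPM in shAURKB replicates 1 to 3. All 3 shAURKB libraries were above the controls by a narrow margin. At 0.16 ± 0.06 (SE), its log2 fold change missed the threshold (edgeR adjusted p = 0.0869), with a 95% interval of 0.02 to 0.29 before adjustment.

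Among the genes for microtubule growth, CKAP5 was lower and its partner TACC3 was not called. CKAP5 (ENSG00000175216, chromosome 11, 46743048 to 46846308, minus strand), also known as ch-TOG, encodes a polymerase that adds tubulin to plus ends. It was at 487, 502 and 475 CPM in shGFP replicates 1 to 3 and at 367, 389 and 382 CPM in shAURKB replicates 1 to 3. The arms were far apart relative to the spread within each. The means were 488 ± 13.7 and 380 ± 11.4 CPM (SD, n = 3 each), and the log2 fold change was -0.36 ± 0.04 (SE; edgeR adjusted p = 1.3e-03), a change of -22.2% with a 95% interval of -26.8% to -17.3%. It was -0.36 without shGFP replicate 1 too.

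TACC3 (ENSG00000013810, chromosome 4, 1721490 to 1745176, plus strand) encodes a protein that Aurora A phosphorylates and that joins clathrin and the CKAP5 protein on spindle microtubules. It was at 232, 221 and 222 CPM in shGFP replicates 1 to 3 and at 230, 234 and 236 CPM in shAURKB replicates 1 to 3. The arms overlapped. The log2 fold change was 0.05 ± 0.04 (SE; edgeR adjusted p = 0.34), and its 95% interval ran from -0.03 to 0.14. Upper-quartile scaling shifted the median over all genes by -0.05 and put TACC3 at -0.00.

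The ratio of TACC3 to CKAP5 within a library does not depend on how libraries are scaled. In shGFP replicates 1 to 3 the ratio was 0.477, 0.44 and 0.468. In shAURKB replicates 1 to 3 the ratio was 0.628, 0.6 and 0.617. The ratio was higher in all 3 shAURKB libraries, by 0.41 on the log2 scale or 1.33-fold. The exact two-sided permutation p was 0.1, the smallest that 3 libraries against 3 allow, and it was 0.2 when adjusted over the 2 ratios computed.

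**Figure D2:**
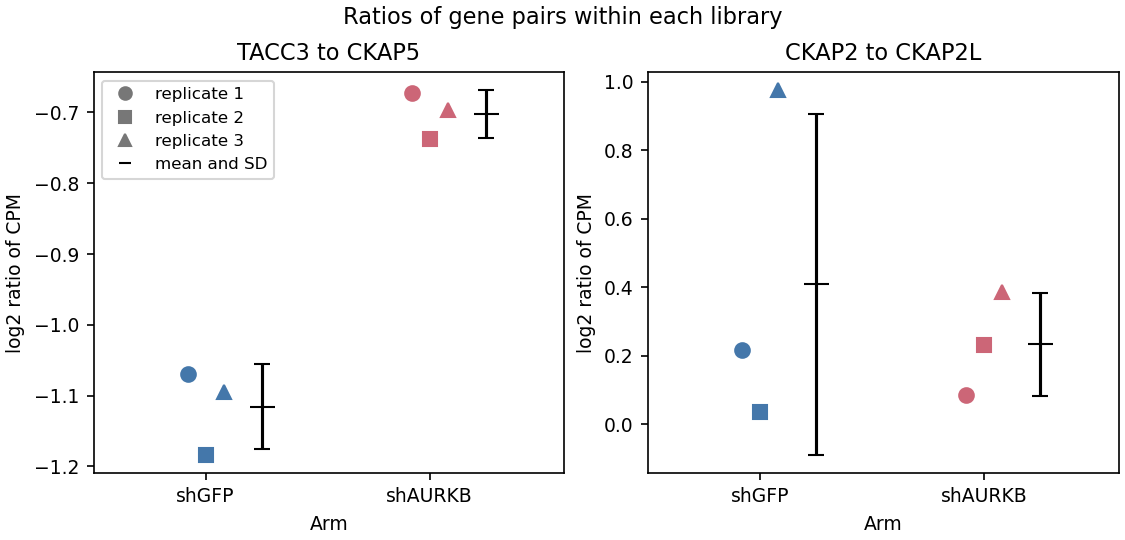
log2 ratio of CPM within each library for TACC3 to CKAP5 (left) and CKAP2 to CKAP2L (right), by arm. Points are libraries and black marks the mean and SD of 3. The TACC3 to CKAP5 ratio separates by arm, and the CKAP2 to CKAP2L ratio is high in shGFP replicate 3.

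GTSE1 (ENSG00000075218, chromosome 22, 46296741 to 46330810, plus strand) encodes a protein carried on growing microtubules that restrains the depolymerase KIF2C and also binds p53. It was at 141, 136 and 140 CPM in shGFP replicates 1 to 3 and at 144, 142 and 142 CPM in shAURKB replicates 1 to 3. The arms missed each other by less than 1 CPM. Its log2 fold change was 0.03 ± 0.04 (SE; edgeR adjusted p = 0.563), with a 95% interval of -0.06 to 0.13, and it was -0.02 with upper-quartile scaling.

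The genes for proteins that bundle and stabilise microtubules near chromosomes, DLGAP5, NUSAP1 and HMMR, were not called. DLGAP5 (ENSG00000126787, chromosome 14, 55148112 to 55191678, minus strand), also known as HURP, encodes a stabiliser of kinetochore fibres that Aurora A phosphorylates. It was at 158, 167 and 164 CPM in shGFP replicates 1 to 3 and at 150, 155 and 148 CPM in shAURKB replicates 1 to 3. Every shAURKB library lay below every control, by a small margin. The log2 fold change was -0.11 ± 0.04 (SE; edgeR adjusted p = 0.104). With upper-quartile scaling it was -0.17 and was called lower (edgeR adjusted p = 0.0326, and 0.0326 to 0.329 over the alternatives and tools), so this call depends on the scaling.

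NUSAP1 (ENSG00000137804, chromosome 15, 41332694 to 41381050, plus strand) encodes a microtubule bundling protein. It was at 171, 156 and 172 CPM in shGFP replicates 1 to 3 and at 187, 164 and 184 CPM in shAURKB replicates 1 to 3. Replicate 2 was the lowest in each arm, and the arms overlapped. NUSAP1 had a log2 fold change of 0.10 ± 0.07 (SE; edgeR adjusted p = 0.308), and it ran from 0.06 without shGFP replicate 2 to 0.16 without shAURKB replicate 2. With upper-quartile scaling it was 0.05. A read-through gene on the same strand, AC087721.2, spans nearly all of NUSAP1 in GENCODE release 29. Its gene identifier was absent from the deposited counts, so it could not be analysed here.

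HMMR (ENSG00000072571, chromosome 5, 163460203 to 163491945, plus strand) encodes RHAMM, a hyaluronan receptor that also binds TPX2 at the spindle. It was at 125, 134 and 137 CPM in shGFP replicates 1 to 3 and at 136, 133 and 130 CPM in shAURKB replicates 1 to 3. The shAURKB values lay inside the control range. HMMR had a log2 fold change of 0.01 ± 0.05 (SE; edgeR adjusted p = 0.894), with a 95% interval of -0.11 to 0.13, and its sign turned to -0.04 with upper-quartile scaling. The antisense gene HMMR-AS1, on the other strand, had at most 7 reads in a library.

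CKAP2 and CKAP2L, the related genes for a pair of spindle-associated proteins, were not called. CKAP2 (ENSG00000136108, chromosome 13, 52455429 to 52476628, plus strand) was at 102, 91.3 and 170 CPM in shGFP replicates 1 to 3 and at 95.1, 85.5 and 101 CPM in shAURKB replicates 1 to 3. The value in shGFP replicate 3 stood 1.67 times above the next highest library, and the other controls overlapped the shAURKB libraries. The log2 fold change of -0.37 ± 0.23 (SE; edgeR adjusted p = 0.278) was the size of the change in ASPM but rested on that library. Without it the value was -0.04 (edgeR adjusted p = 0.805, and 0.136 to 0.805 over the alternatives).

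Of the 4832 tested genes with a mean of at least 50 CPM, 20 had a library at least 1.5 times above the next, 2 of them in shGFP replicate 3. The neighbouring gene VPS36, on the other strand, had 1115, 965 and 1233 raw counts in the controls, so it did not share the excess. The cause of the high CKAP2 value was not tested.

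CKAP2L (ENSG00000169607, chromosome 2, 112736607 to 112764677, minus strand) was at 87.6, 89.0 and 86.7 CPM in shGFP replicates 1 to 3 and at 89.7, 72.8 and 77.2 CPM in shAURKB replicates 1 to 3. The controls were tight, and shAURKB replicate 1 lay above them. The log2 fold change was -0.13 ± 0.08 (SE; edgeR adjusted p = 0.271). It was -0.22 without shAURKB replicate 1 (edgeR adjusted p = 0.0542, and 0.0542 to 0.585 over the alternatives) and -0.07 without shAURKB replicate 2. NT5DC4, which overlaps it on the other strand, had 16 to 25 reads per library.

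The ratio of CKAP2 to CKAP2L in shGFP replicates 1 to 3 was 1.16, 1.03 and 1.97. For shAURKB replicates 1 to 3 this ratio was 1.06, 1.17 and 1.31. The arms overlapped. The difference on the log2 scale was -0.18 (exact two-sided permutation p = 0.9, also 0.9 adjusted over the 2 ratios), and it turned to 0.11 without shGFP replicate 3.

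**Figure D3:**
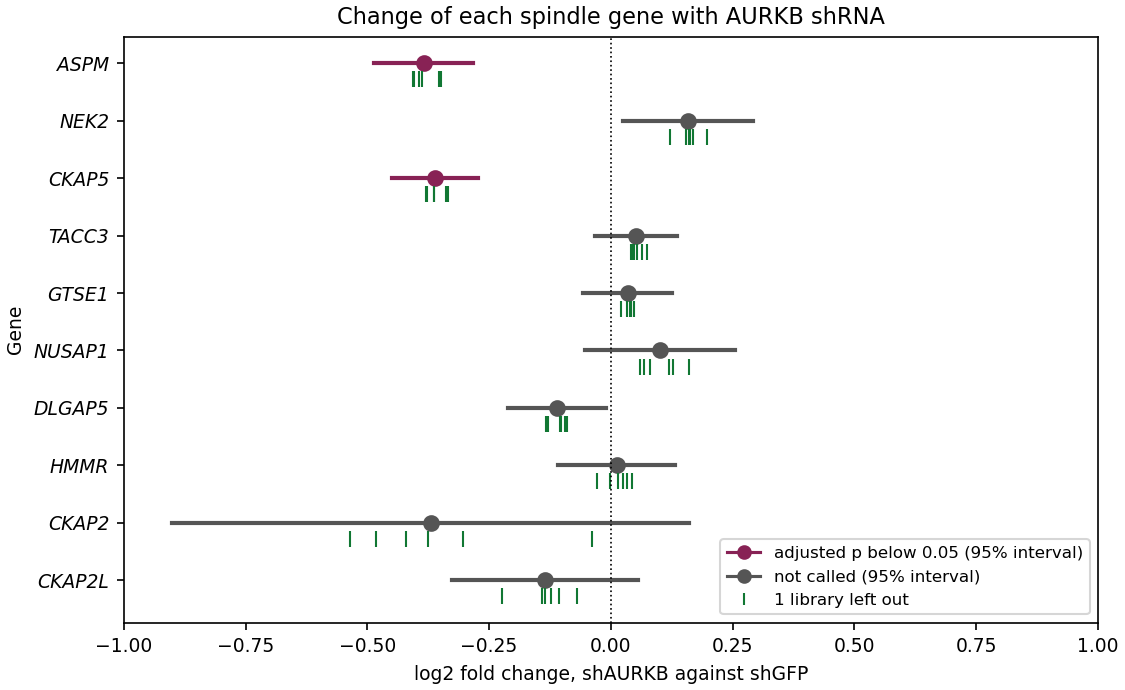
log2 fold change of each spindle gene, shAURKB against shGFP, with its 95% interval (circle and line) and the value with each library left out in turn (green ticks). Purple marks an edgeR adjusted p below 0.05. ASPM and CKAP5 stay between -0.41 and -0.33 with any library left out, while CKAP2 moves from -0.54 to -0.04.

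Per length, the members spanned a modest range. In FPKM, a level scaled by gene length and library size so that genes can be set side by side, the control means were 45.7 ± 1.83 for ASPM, 41.8 ± 1.17 for CKAP5 and 36 ± 1.02 for DLGAP5 (SD, n = 3 each). NUSAP1 (26.3) and GTSE1 (25.4) followed with overlapping libraries, then HMMR (21.1) and TACC3 (20.04), also overlapping. CKAP2 (15.8), NEK2 (14.6) and CKAP2L (11.2) were the lowest, and CKAP2 overlapped both TACC3 and NEK2.

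With AURKB shRNA the first 3 came together, at 33.8 ± 1.21 FPKM for ASPM, 32.2 ± 0.88 FPKM for DLGAP5 and 31.4 ± 0.94 FPKM for CKAP5 (SD, n = 3 each). DLGAP5 overlapped both of the others there, and neither in the controls. The order depends on the gene length used. The deposited FPKM imply lengths 1.25 to 2.24 times the exonic length in GENCODE release 29, and with the latter NUSAP1 came first in the controls at 58.8, beside CKAP5 at 58.0 and ASPM at 57.9.

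ASPM and CKAP5 have the longest exonic lengths of the 10, 10887 and 8538 bases, and the next is TACC3 at 6528. Length moved with the change across genes. Among protein-coding genes with a mean of at least 50 CPM, 16.8% of the 1339 longer than 8000 bases were called lower and 17.3% higher, against 6.84% and 36.8% of the 1140 of up to 4000 bases. With each library's trend on length removed, an alternative chosen after seeing the data, ASPM was at -0.34 (edgeR adjusted p = 2.19e-03) and CKAP5 at -0.34 (edgeR adjusted p = 1.93e-03), both still called lower. The part of length in either fall was not tested beyond this.

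Reads of ASPM and CKAP5, a pairing picked after their values were seen, made up 49.2% to 51.1% of all member reads in the controls and 43.8% to 44.5% with AURKB shRNA. The other 8 members summed to 1079, 1055 and 1158 CPM in shGFP replicates 1 to 3 and to 1102, 1057 and 1088 CPM in shAURKB replicates 1 to 3. Those sums overlapped between the arms.

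Further genes of spindle building were taken in 7 lists, and genes are named by size among the called unless said otherwise. Their counts stand against 12.5% of all tested genes called higher and 10.9% lower. Those shares include less abundant genes. Among protein-coding genes with a mean of at least 50 CPM, 17.3% to 36.8% were called higher, depending on the length class. The share called lower there was 6.84% to 16.8%. Over all genes, the 1847 rises and 1609 falls became 1271 to 1336 and 998 to 1056 when any 1 library was left out, and 1325 and 2087 with upper-quartile scaling. Of 20 genes of the Aurora A, TPX2 and Ran pathway, which directs microtubule growth around chromosomes, 7 rose (35%), 1 fell (5%) and 12 were not called (median log2 fold change 0.07). CLTC, the clathrin heavy chain that binds TACC3, rose by 0.78 ± 0.05 (SE; edgeR adjusted p = 2.76e-04), from 257 to 441 CPM. RANBP1, a Ran cofactor, rose by 0.43 ± 0.05 and PLK1, a mitotic kinase, by 0.34 ± 0.04. TPX2, the activator of Aurora A and partner of HMMR, picked after its values were seen, rose by 0.14 ± 0.03 (edgeR adjusted p = 9.67e-03), a call lost with upper-quartile scaling and on log2(FPKM + 1) with or without the filter (0.056 with upper-quartile scaling, and 2.16e-03 to 0.0966 over the alternatives). The 35% that rose lies within the 17.3% to 36.8% of protein-coding genes with a mean of at least 50 CPM. The 7 rises became 4 to 6 when any 1 library was left out, and 3 rises and 3 falls with upper-quartile scaling.

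Centrosome and centriole genes, the site of NEK2, were called in 1 direction. Of 20 tested, none rose, 8 fell (40%) and 12 were not called (median -0.20), against 10.9% of all tested genes called lower. CEP63 fell by 0.32 ± 0.07 on the log2 scale (SE; edgeR adjusted p = 0.0172), CEP135 by 0.28 ± 0.07 and SASS6, a centriole cartwheel gene, by 0.26 ± 0.07. PCNT, which anchors the material around centrioles and was picked after its values were seen, fell by 0.24 ± 0.04. The falls numbered 3 to 5 with any 1 library left out. The CEP63 call was lost without shAURKB replicate 1 or 3 (adjusted p of 9.22e-03 to 0.0612 over the alternatives). That of CEP135 was lost without shAURKB replicate 2 or 3, without shGFP replicate 2 or 3, with no filter and with the replicate block (0.0151 to 0.0827). That of SASS6 was lost when any library other than shGFP replicate 1 was left out, with DESeq2, with no filter and with the replicate block (adjusted p of 0.0198 to 0.119 over the alternatives).

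Among 19 augmin and gamma-tubulin genes, which nucleate new microtubules, 3 rose and none fell (median -0.07). The 15.8% that rose is near the 12.5% of all tested genes. MZT1, a small subunit of the gamma-tubulin complex, rose by 0.40 ± 0.08 (SE; edgeR adjusted p = 0.0114) and TUBGCP2 by 0.30 ± 0.05. NEDD1 rose by 0.17 ± 0.05 (edgeR adjusted p = 0.0461), a call lost in 14 of the alternatives, including each that left out 1 library, DESeq2, the replicate block and the length trend removed (adjusted p of 0.0406 to 0.169 over the alternatives). Upper-quartile scaling gave 2 rises and 3 falls.

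Genes acting on microtubule plus ends, severing and stability went both ways, with 4 rising (25%) and 3 falling (18.8%) of 16 tested (19 listed, median -0.05), against 12.5% and 10.9% of all tested genes. CLIP1, a plus-end protein gene, rose by 0.41 ± 0.06 (SE; edgeR adjusted p = 5.96e-03, a call lost on log2(FPKM + 1) without the filter at 0.0681) and MAP7D1 by 0.30 ± 0.04. MAP4, which coats microtubules, fell by 0.29 ± 0.07 (edgeR adjusted p = 0.0231), and its call was lost without shGFP replicate 1 or any 1 shAURKB library, with the length trend removed (0.0551) and on log2(FPKM + 1) without the filter (0.057) (adjusted p of 8.36e-03 to 0.0728 over the alternatives). Among protein-coding genes with a mean of at least 50 CPM, 17.3% to 36.8% rose by length class, a range that holds the 25%. The share that fell there was 6.84% to 16.8%, below the 18.8%. With 1 library left out there were 3 or 4 rises and 1 or 2 falls in this list. Upper-quartile scaling gave 4 rises and 5 falls.

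Of 12 tested tubulin genes (14 listed), 2 rose and 1 fell (median 0.08). The 16.7% and 8.33% are near the 12.5% and 10.9% of all tested genes. TUBE1, epsilon-tubulin of the centriole, fell by 0.75 ± 0.09 on the log2 scale (SE; edgeR adjusted p = 1.9e-03), from 35.7 to 21.2 CPM. TUBA1C rose by 0.15 ± 0.03, and TUBB4A by 0.33 ± 0.09, a call lost when any library other than shGFP replicate 1 was left out, with DESeq2, with the replicate block and with no filter (adjusted p of 0.0341 to 0.21 over the alternatives and tools). Neither rise was called with upper-quartile scaling or in any FPKM fit. Alpha-tubulin genes closely resemble each other in sequence, as do beta-tubulin genes. How reads were split within each family is not given, so these rises are uncertain.

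Among 23 genes of the FOXM1, B-MYB and DREAM regulators, which drive or hold back G2 and mitosis genes, 3 rose and 5 fell (median -0.06). The 13.0% that rose is near the 12.5% of all tested genes, and the 21.7% that fell stands against 10.9%. RB1 rose by 0.61 ± 0.04 (SE; edgeR adjusted p = 3.72e-04) and NFYA, a subunit of the CCAAT-binding factor, by 0.56 ± 0.04, while E2F5 fell by 0.57 ± 0.11 on the log2 scale. FOXM1, picked after its values were seen, was at 87.5, 87.2 and 84.3 CPM in shGFP replicates 1 to 3 and at 76.3, 77.1 and 183 CPM in shAURKB replicates 1 to 3. Its log2 fold change of 0.38 ± 0.33 was not called (edgeR adjusted p = 0.451), and a single shAURKB library, replicate 3, lay above the controls.

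Of 33 other G2 and mitosis genes, 9 rose and 4 fell (median 0.01, or -0.04 with upper-quartile scaling). The 27.3% that rose stands against 12.5% of all tested genes, and the 12.1% that fell is near 10.9%. Among protein-coding genes with a mean of at least 50 CPM, 17.3% to 36.8% rose by length class, a range that holds the 27.3%. The anaphase activator CDC20 rose by 0.44 ± 0.04 (SE; edgeR adjusted p = 6.81e-04), cyclin B1, CCNB1, by 0.42 ± 0.05 and UBE2C, a ubiquitin enzyme of mitotic exit, by 0.39 ± 0.06. With any 1 library left out there were 5 to 7 rises and 1 or 2 falls. Upper-quartile scaling gave 6 rises and 5 falls.

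**Figure D4:**
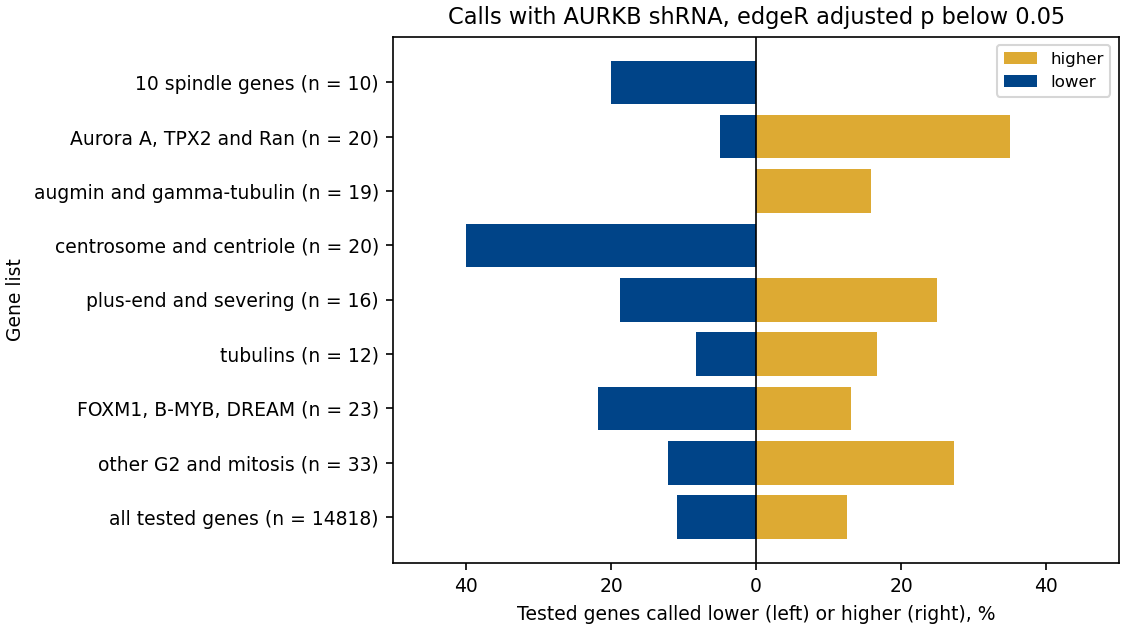
Share of tested genes called higher (yellow, right) or lower (blue, left) with AURKB shRNA for the 10 spindle genes, the 7 further lists and all 14818 tested genes, at an edgeR adjusted p below 0.05. Centrosome and centriole genes have 40% called lower and none higher, and the Aurora A, TPX2 and Ran list 35% higher.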

How the data were processed

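Libraries were grouped by the sample titles. The authors deposited whole-number counts and FPKM per Ensembl gene, 1 column per library. HISAT2 2.0.4, StringTie 1.3.0, edgeR and GRCh38 are named, per the submitters' processing notes, without their roles. How strand and multi-mapping reads were handled is not stated. The deposited FPKM equal the counts over a fixed length per gene and the library total (largest relative deviation 3.78e-05 in 12404 genes). All 10 members have the same span in GENCODE release 29.

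The function filterByExpr (minimum count 10, minimum total 15) kept 14818 genes, and TMM factors were 0.979 to 1.02. The test was edgeR's quasi-likelihood test (version 4.0.16, R 4.3.3) for the arm alone, two-sided. P-values were adjusted by Benjamini-Hochberg across the 14818 genes, with calls below 0.05. The SE is the log2 fold change over the root of F, and 95% intervals use the test's degrees of freedom. The biological coefficient of variation was 0.127. Replicates differed beyond sampling noise (chi-square of 6.73 to 7.61 per degree of freedom), so none was a copy. Tested on simulated counts for these 14818 genes, recovery was 0% for genes changed 1.25-fold, 26% for 1.5-fold, 58% for 2-fold and 90% for 4-fold. Unchanged genes made up 8.42% of the calls. In that simulation 50 genes were changed at each size, against 3456 genes called in the data. The adjustment is stricter when fewer genes change, so these shares are not the recovery in the data.

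All members and AURKB are named, with up to 3 called genes of largest change per further list. The members and lists were chosen with earlier results of these data known. Alternative scalings were upper-quartile and RLE, and alternative tools DESeq2 1.42.0 and limma-voom (limma 3.58.1). Filters tried were none and 1 CPM in at least 3 libraries. The replicate number was added as a block, and each library was left out. limma was run on log2(FPKM + 1) with at least 0.5 FPKM in 3 libraries, with a pseudocount of 0.1, and without that filter. The length trend was also removed. Ratios were compared by exact permutation.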

Additional observations from a re-analysis of the deposited data

How the results depend on the processing

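Over the 17 alternatives, ASPM (-0.44 to -0.34) and CKAP5 (-0.42 to -0.33) were called lower in each, with adjusted p of at most 0.0103 and 0.011, and AURKB ran from -1.42 to -1.28. DLGAP5 was called lower with upper-quartile scaling, log2(FPKM + 1) and log2(FPKM + 0.1), which made 3 spindle genes lower, and no member was called higher in any. Signs turned for values near 0. GTSE1 was -0.02 (-0.0196 with upper-quartile scaling, -0.0163 on log2(FPKM + 1) with or without the filter, -0.0168 with a pseudocount of 0.1), and TACC3 was -0.00239 with upper-quartile scaling. HMMR was -0.0423 with upper-quartile scaling, -0.0371 on log2(FPKM + 1) with or without the filter, -0.0386 with a pseudocount of 0.1 and -0.00496 with the length trend removed, and ran from -0.0279 to 0.043 with a library left out (-0.0279 without shGFP replicate 1, -0.00134 without shAURKB replicate 1). The CKAP2 to CKAP2L difference ran from -0.36 to 0.11 with a library left out, the latter (0.108) without shGFP replicate 3. The cause of these turns was not tested.

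Over all genes, 1847 were higher and 1609 lower. The lower genes numbered 998 to 1056 with a library left out (fewer samples) and 1062 with DESeq2, and the higher genes 914 on log2(FPKM + 1) without the filter. Higher genes made up 53.4% of calls, and 38.8% with upper-quartile scaling. With the replicate number as a block the counts were 1286 higher and 1027 lower, and the called spindle genes numbered 2 in that fit too. Deviations of same-numbered libraries correlated at -0.0887, -0.0313 and -0.0365, and no library correlated best with its own number. No pairing was visible, but 3 libraries per arm cannot show whether a preparation was shared. Between 615 and 7853 reads per member and library were counted, and interval width, widest for CKAP2, limits what could be called.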

Other observations

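Single-library excesses such as that of CKAP2 occurred in other genes and in both arms. Among tested genes with a mean of at least 50 CPM, examples were CCDC69 in shGFP replicate 1 (2.8 times the next library), STX16 in shGFP replicate 2 (2.58 times), B2M, the light chain of HLA class I, in shAURKB replicate 2 (2.17 times) and FOXM1 in shAURKB replicate 3 (2.1 times). These genes were picked by this ratio after the values were seen, and the cause was not tested.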
